A study of Mus musculus with 5 samples.

Results

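A set of 8 tight-junction genes was examined for binding of KLF5, a zinc-finger transcription factor, in mouse embryonic stem (ES) cells: the claudin genes Cldn3, Cldn4, Cldn6, Cldn7 and Cldn13, the occludin gene Ocln, and Tjp1 and Tjp3, which encode the scaffold proteins ZO-1 and ZO-3. The genes were a list of 8 among 21887 protein-coding genes. This list, the other gene lists and the thresholds were chosen with earlier results of these data known. The shares of all genes set beside them are therefore for description only. Every V5-KLF5 summit (the highest point of a ChIP-seq peak) inside a gene or within 20 kb of its ends was taken. This gave 61 distinct summits of the 45378 in the library. The series holds 5 libraries, each the only one of its group. ES cells derived from C57B6/J mice, wild type and overexpressing V5-tagged KLF5, gave an anti-V5 immunoprecipitate, a mouse normal IgG immunoprecipitate and an input. Untagged wild-type ES-D3 cells, an established mouse ES line, gave an anti-V5 immunoprecipitate and an input. The V5-tagged protein was overexpressed, so its binding sites are those of cells with added KLF5. The promoter that drives the transgene and the number of clones are not given in the sources used here.

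Tight junctions seal the space between neighbouring epithelial cells. Claudins are membrane proteins that form the junctional strands and set which ions pass, occludin lies in the same strands, and the ZO scaffolds tie the strands to the actin cytoskeleton. In the early mouse embryo they assemble in the trophectoderm, the outer epithelium that gives rise to the placenta, where they seal the blastocoel cavity. Claudin 4 and claudin 6 are known from that epithelium. KLF5 is needed there too, and KLF proteins bind GC-rich and CACCC-type DNA.

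All 8 genes had V5-KLF5 summits, against 74.7% of protein-coding genes by the same rule. In the same windows the IgG list of the tagged cells held 0 peaks and the V5 list of the untagged cells held 0, while these lists held 3 and 0 peaks in the whole genome. The run name in the file of the untagged cells is of another ES line, JM8.N4, than its label. The V5 library kept 23.2 M tags after duplicates were removed, the IgG library 24.5 M and the untagged V5 library 21.8 M (M, mega).

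The promoter sequences shown here are those on which a V5-KLF5 summit stood, together with those of Cldn3 and Cldn6, whose windows lay wholly under a peak with its summit outside. The second windows of Tjp3 and Ocln were also covered by the peak of the first and are not shown. Each runs from 250 bases before the RefSeq start site to 50 bases after it (GRCm38.p6, the assembly that mm10 names), 5′ to 3′ on the strand of the gene. Capitals mark 2 motifs searched on both strands, CCNCNCCC for KLF factors and the GC box GGGCGG, which can overlap. The Cldn4 window is chr5:134946885-134947184 on the minus strand, that of Cldn3 is chr5:134985964-134986263 on the plus strand, and that of Tjp3 is chr10:81291532-81291831 on the minus strand. The second listed Cldn7 start has the window chr11:69965171-69965470 on the plus strand, and the first listed Ocln start has chr13:100552669-100552968 on the minus strand. The Cldn6 window is chr17:23679115-23679414 on the plus strand.
Cldn4: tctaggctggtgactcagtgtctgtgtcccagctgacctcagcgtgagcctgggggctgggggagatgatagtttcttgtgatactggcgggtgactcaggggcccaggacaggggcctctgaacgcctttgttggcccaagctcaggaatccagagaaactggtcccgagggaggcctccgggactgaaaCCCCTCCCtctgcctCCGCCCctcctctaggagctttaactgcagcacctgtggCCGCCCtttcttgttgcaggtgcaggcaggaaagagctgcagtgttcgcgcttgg
Cldn3: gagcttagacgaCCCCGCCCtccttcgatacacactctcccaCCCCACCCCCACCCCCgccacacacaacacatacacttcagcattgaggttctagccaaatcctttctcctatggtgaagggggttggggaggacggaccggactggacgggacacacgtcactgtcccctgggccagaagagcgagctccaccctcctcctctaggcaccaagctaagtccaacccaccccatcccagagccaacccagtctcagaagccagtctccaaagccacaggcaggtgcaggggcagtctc
Tjp3: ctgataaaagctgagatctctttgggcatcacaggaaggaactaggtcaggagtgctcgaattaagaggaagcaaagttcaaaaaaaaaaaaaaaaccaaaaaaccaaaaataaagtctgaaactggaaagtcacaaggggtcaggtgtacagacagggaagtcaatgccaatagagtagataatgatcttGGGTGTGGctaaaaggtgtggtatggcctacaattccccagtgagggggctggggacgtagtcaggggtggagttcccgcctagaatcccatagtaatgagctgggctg
Cldn7: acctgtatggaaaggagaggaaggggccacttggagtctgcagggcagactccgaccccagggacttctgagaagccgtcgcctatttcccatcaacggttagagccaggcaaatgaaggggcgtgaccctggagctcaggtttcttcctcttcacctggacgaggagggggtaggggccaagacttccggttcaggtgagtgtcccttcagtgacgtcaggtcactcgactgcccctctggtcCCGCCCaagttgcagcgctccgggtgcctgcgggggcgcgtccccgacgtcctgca
Ocln: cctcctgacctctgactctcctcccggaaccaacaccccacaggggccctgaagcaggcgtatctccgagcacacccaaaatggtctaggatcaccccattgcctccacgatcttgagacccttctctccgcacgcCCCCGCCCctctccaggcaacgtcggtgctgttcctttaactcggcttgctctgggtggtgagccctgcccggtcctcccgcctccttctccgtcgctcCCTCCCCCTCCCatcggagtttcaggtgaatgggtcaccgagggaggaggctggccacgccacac
Cldn6: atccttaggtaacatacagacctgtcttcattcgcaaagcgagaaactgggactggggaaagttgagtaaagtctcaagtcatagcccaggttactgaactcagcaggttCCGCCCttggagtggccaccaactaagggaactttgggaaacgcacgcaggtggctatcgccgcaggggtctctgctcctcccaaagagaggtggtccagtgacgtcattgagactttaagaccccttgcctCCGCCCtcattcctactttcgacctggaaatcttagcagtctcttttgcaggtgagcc

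At all 7 members with a listed start site a summit lay within 500 bp of one, against 47.6% of the 17492 protein-coding genes with a listed start. Cldn13 has no entry in the table of start sites. The summit nearest to the start was 11 bp upstream at Tjp3, 67 bp upstream at Ocln, 68 bp upstream at Cldn4 and 393 bp upstream at Cldn3. It was 22 bp downstream of the second start at Cldn7, 233 bp downstream at Tjp1 and 377 bp downstream at Cldn6. The only listed Tjp1 start, at 65371244, lies inside the annotated gene span, whose 5′ end is at 65527850. No summit was closer to that end than 41511 bp. The start-site peaks differed in strength, given here as the authors' fold enrichment over input. Cldn4 had 11.2 and Tjp3 had 10.96, whereas Cldn6 had 7.32 and the other 4 genes lay between 5.07 at Tjp1 and 5.38 at Cldn7.

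The stricter KLF motif CCACNCCC, a part of the CCNCNCCC matches, was present in 4 of the 10 promoter windows of these 7 genes, each at another gene. It was present in 19.4% of the 21263 protein-coding promoter windows and in 29.1% of the 5592 that held a summit. Among the member windows, those of Cldn4, the first Tjp3 start, the second Cldn7 start and the first Ocln start held a summit. Only that of Tjp3 had the stricter motif. Tjp3 had the match GGGTGTGG (the motif on the other strand) 59 bases upstream of the start and 41 bp from the summit. Cldn3 had a pair of overlapping matches inside its CACCC-rich stretch, 187 and 193 bp from the summit. The other matches were in the Tjp1 window, 433 bp from a summit, and at the second Ocln start, 285 bp from one. Cldn4 had no CCACNCCC match, but the looser CCNCNCCC was present as CCCCTCCC 9 bp from its summit. Cldn6 had neither and held GC boxes.

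The looser motif was present in 7 of the 10 windows, against 56.6% of all windows, and the GC box in 7 of 10, against 46.2%. The 5592 windows that held a summit had them at 80.8% and 78.7%, and the others at 47.9% and 34.6%. Of the member windows that held a summit, only that of Cldn7 lacked the looser motif and only that of Tjp3 the GC box. Median G+C content was 63.0% in windows with a summit and 53.0% in the others, and its part in the motif shares was not tested. The 10 member windows had a median of 60.8%. The Tjp3 window with the summit had 45.3%, the lowest of the 10. The TEAD motif GGAATG was present at Cldn6 and at the first Cldn7 start (13.6% of all windows). The octamer ATGCAAAT was present at 0 members and in 1.66% of windows, and the SOX motif CATTGTN at 0 members and in 10.97%.

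Cldn3, Cldn4 and Cldn13 lie together on chromosome 5. The proteins encoded by Cldn3 and Cldn4 are among the known receptors of Clostridium perfringens enterotoxin. Their windows joined to a block of 113.2 kb with 26 summits, of which 8 (30.8%) had a fold enrichment of at least 10, against 13.0% of all 45366 summits on assembled chromosomes. Neighbouring summits of the block were a median of 2443 bp apart, with a range from 695 to 15503 bp. Over all chromosomes that median was 13747 bp, but there it includes regions far from genes, whereas the block is made of gene windows. The plot of the block shows most of the tall summits on the Cldn13 side of Cldn4, over Mettl27 and at Cldn4 itself.

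**Figure D1:**
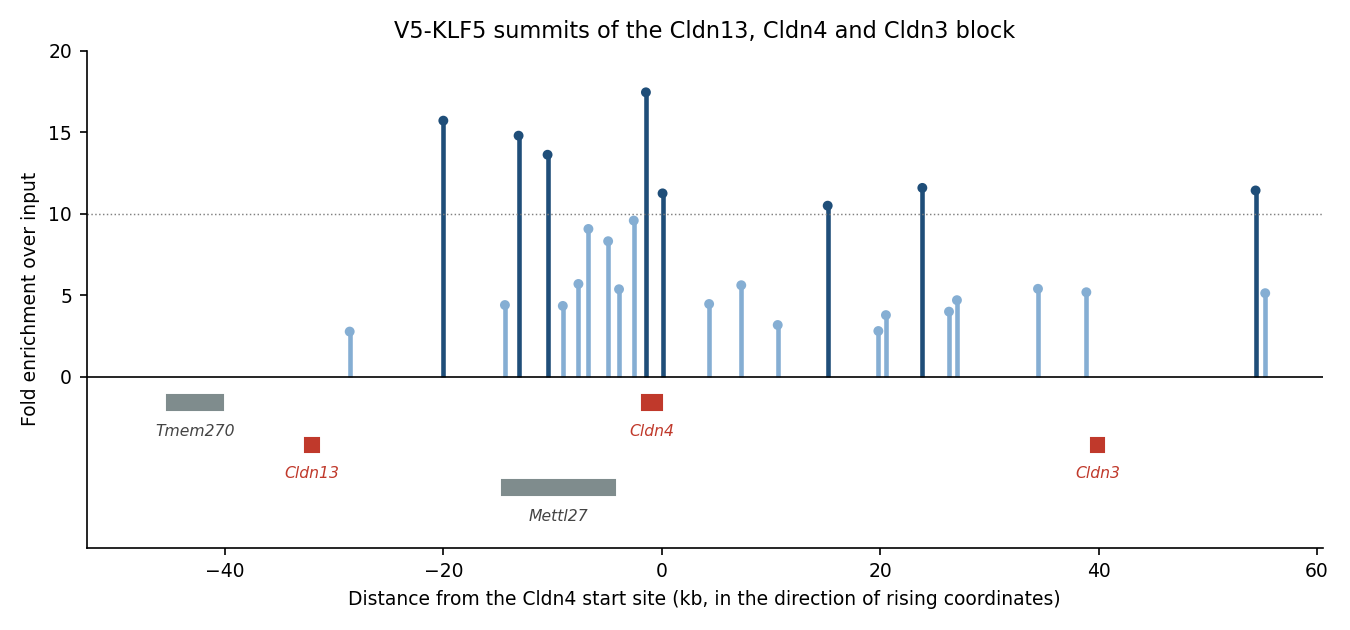
V5-KLF5 summits of the chromosome 5 block, with the distance from the Cldn4 start site in kb on the x axis and the fold enrichment over input on the y axis; dark lines are summits at or above 10 (dotted line), and boxes are protein-coding genes (red: Cldn13, Cldn4, Cldn3). The 26 summits are densest over Mettl27 and Cldn4, and none lies in Cldn13 or to its left. Of the 26, 8 are at or above 10, and the highest, 17.4, is inside Cldn4.

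Cldn4 (chromosome 5, 134945123 to 134946934, minus strand) had 17 summits, the most of the 8 genes within 20 kb and a count that 0.466% of protein-coding genes reached. That order depends on the window: within 50 kb Cldn3 had 28 and Cldn4 24, within 10 kb Cldn4 and Tjp3 had 11 each, and by nearest gene end Cldn4 and Cldn3 had 7 each. Its strongest peak, at 134945231 to 134945740, had a fold enrichment of 17.4 and a pileup (the height of extended tags at the summit) of 80. That summit stood inside the gene, 1456 bp downstream of the start and 355 bp from the gene end. The start-site peak, at 134946769 to 134947478, had 11.2 and a pileup of 62. Another peak, with its summit 759 bp beyond the 3′ end of the gene, had 9.58. The gene thus had peaks on both sides and the highest between them. Next on the 3′ side, a peak of 5.37 stood between Cldn4 and the neighbouring gene Mettl27.

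Farther on the 3′ side of Cldn4, 7 summits lay inside Mettl27, which encodes a methyltransferase-like protein (134932304 to 134942637). Fold enrichments of 14.8 and 13.6 were reached there, by the peaks at 134933422 to 134934414 and 134936200 to 134936936. The listed start nearest to both was that of another gene, 9030607J07Rik, 1143 and 3798 bp from their summits. The other 5 summits inside Mettl27 had between 4.34 and 9.07, and that of 4.40 stood 39 bp downstream of the Mettl27 start. Beyond it, the peak at 134926575 to 134927161 had 15.7 and the highest pileup of all 61 summits, 90. Its nearest gene end was that of Mettl27, at 5383 bp, and it lay in the windows of both Cldn4 and Cldn13. Upstream of Cldn4 were 4 summits with 3.17 to 10.5 and another of 2.80 shared with Cldn3. The peak of 10.5, at 134961775 to 134962747, stood 15194 bp upstream with Cldn4 as the nearest gene.

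Cldn3 (chromosome 5, 134986214 to 134987476, plus strand) had 9 summits and none inside the gene. The peak at 134970552 to 134971104, 15417 bp upstream, had a fold enrichment of 11.6 and a pileup of 55. The peak at 135001079 to 135001782, 13848 bp beyond the 3′ end and nearest to Abhd11, had 11.4 and a pileup of 63. The start-site peak, at 134985532 to 134986512, had 5.18 and a pileup of 32. The strong peaks of Cldn3 were thus distant ones, and its other 6 summits had 2.80 to 5.39.

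Cldn13 (chromosome 5, 134914250 to 134915530), had 4 summits and none inside. Only the weakest was its own, at 2813 bp from the gene, with a fold enrichment of 2.77, rank 44957 in the list. It had a pileup of 23 on an input background of 7.67, above the 95th percentile under all summits, 6.13. The part of input in that value was not tested. The other 3 were shared with Cldn4 and lay 11391, 17033 and 18284 bp from the gene, with 15.7, 4.40 and 14.8. All 3 had Mettl27 as the nearest protein-coding gene.

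Cldn6 (chromosome 17, 23679348 to 23682446, plus strand) had 8 summits with fold enrichments of 3.42 to 7.32 and none at or above 10. The strongest, at 23679049 to 23679906, covered the start site and had a pileup of 40. Cldn6 was the only 1 of 7 members where the peak within 500 bp of the start was also the strongest within 20 kb, which held for 45.2% of the 8320 protein-coding genes with such a peak. The 5 summits upstream of Cldn6 lay in or beside Bicdl2, Thoc6, Hcfc1r1 and Tnfrsf12a. Of these, the summit 61 bp upstream of the Tnfrsf12a start had the highest pileup at the locus, 44, on an input background of 8.43, and so a fold enrichment of only 4.77. Input there was above the 95th percentile under all summits, 6.13, and its part in the result was not tested. Another summit stood 44 bp upstream of the Thoc6 start.

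Cldn7 (chromosome 11, 69964779 to 69967886, plus strand) carried 4 of its 6 summits inside a gene of 3108 bp. They lay 22, 821, 1319 and 1913 bp downstream of the second start site, with fold enrichments of 5.38, 4.34, 5.17 and 7.08 and pileups of 25, 17, 24 and 28. No peak reached the window of the first start. The strongest of its 6 summits, 7.68 with a pileup of 42, was 16466 bp away, 97 bp from an end of the glucose transporter gene Slc2a4. The last had 5.81 and stood 140 bp downstream of the start of Elp5.

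Ocln (chromosome 13, 100496504 to 100552718, minus strand) had 4 summits over 56215 bp of gene and its flanks. The start-site peak, at 100551818 to 100553114, was 1297 bp long and had a fold enrichment of 5.36 and a pileup of 29. The strongest peak, with 8.30 and a pileup of 33, stood 15853 bp upstream, where Ocln was the nearest protein-coding gene. A peak of 2.98 lay deep inside the gene. The last, with 7.24, was 158 bp upstream of the start of Gtf2h2, a subunit gene of the general transcription factor TFIIH.

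Tjp1 (chromosome 7, 65296165 to 65527850, minus strand) is the longest of the 8 genes, 231686 bp, and all 5 of its summits were inside. The peak at the listed start, at 65370841 to 65371364, had a fold enrichment of 5.07 and a pileup of 21. The other 4 lay 83213, 98657, 99165 and 115095 bp upstream of the listed start at 65371244, inside the annotated gene span. They had 6.61, 3.51, 4.11 and 4.82, and pileups of 36, 18, 22 and 26. The last of these was the nearest summit to the 5′ end of the span at 65527850, 41511 bp from it. At no other of the 8 genes was the strongest peak as low as that of Tjp1.

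Tjp3 (chromosome 10, 81273188 to 81291581, minus strand) had 12 summits, 6 of them inside the gene, and the strongest peak of all 61. That peak, at 81285514 to 81286293, stood 5364 bp downstream of the nearer start with a fold enrichment of 17.9 and a pileup of 78, rank 1045 of 45378. The peaks at 81282071 to 81282616 and 81284735 to 81285436, also inside, had 16.6 and 10.7. The start-site peak, at 81291019 to 81292019, had 10.96 and a pileup of 52. Tjp3 and the chromosome 5 block held every summit with a fold enrichment of at least 10 within 20 kb of the 8 genes.

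Outside Tjp3, the peak at 81266357 to 81267043 had a fold enrichment of 10.0 and stood 205 bp from an end of the mitochondrial ribosomal protein gene Mrpl54. The other outer summits had 4.39 to 7.65 and lay in Apba3 or in Pip5k1c, which encodes a phosphatidylinositol phosphate kinase. One of those, with 7.65, was 264 bp downstream of the Pip5k1c start. The plots of these loci show 5 Tjp3 summits at or above 10, of which 3 are in the gene, and only lower summits within 20 kb of Cldn6, Cldn7, Ocln and Tjp1.

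**Figure D2:**
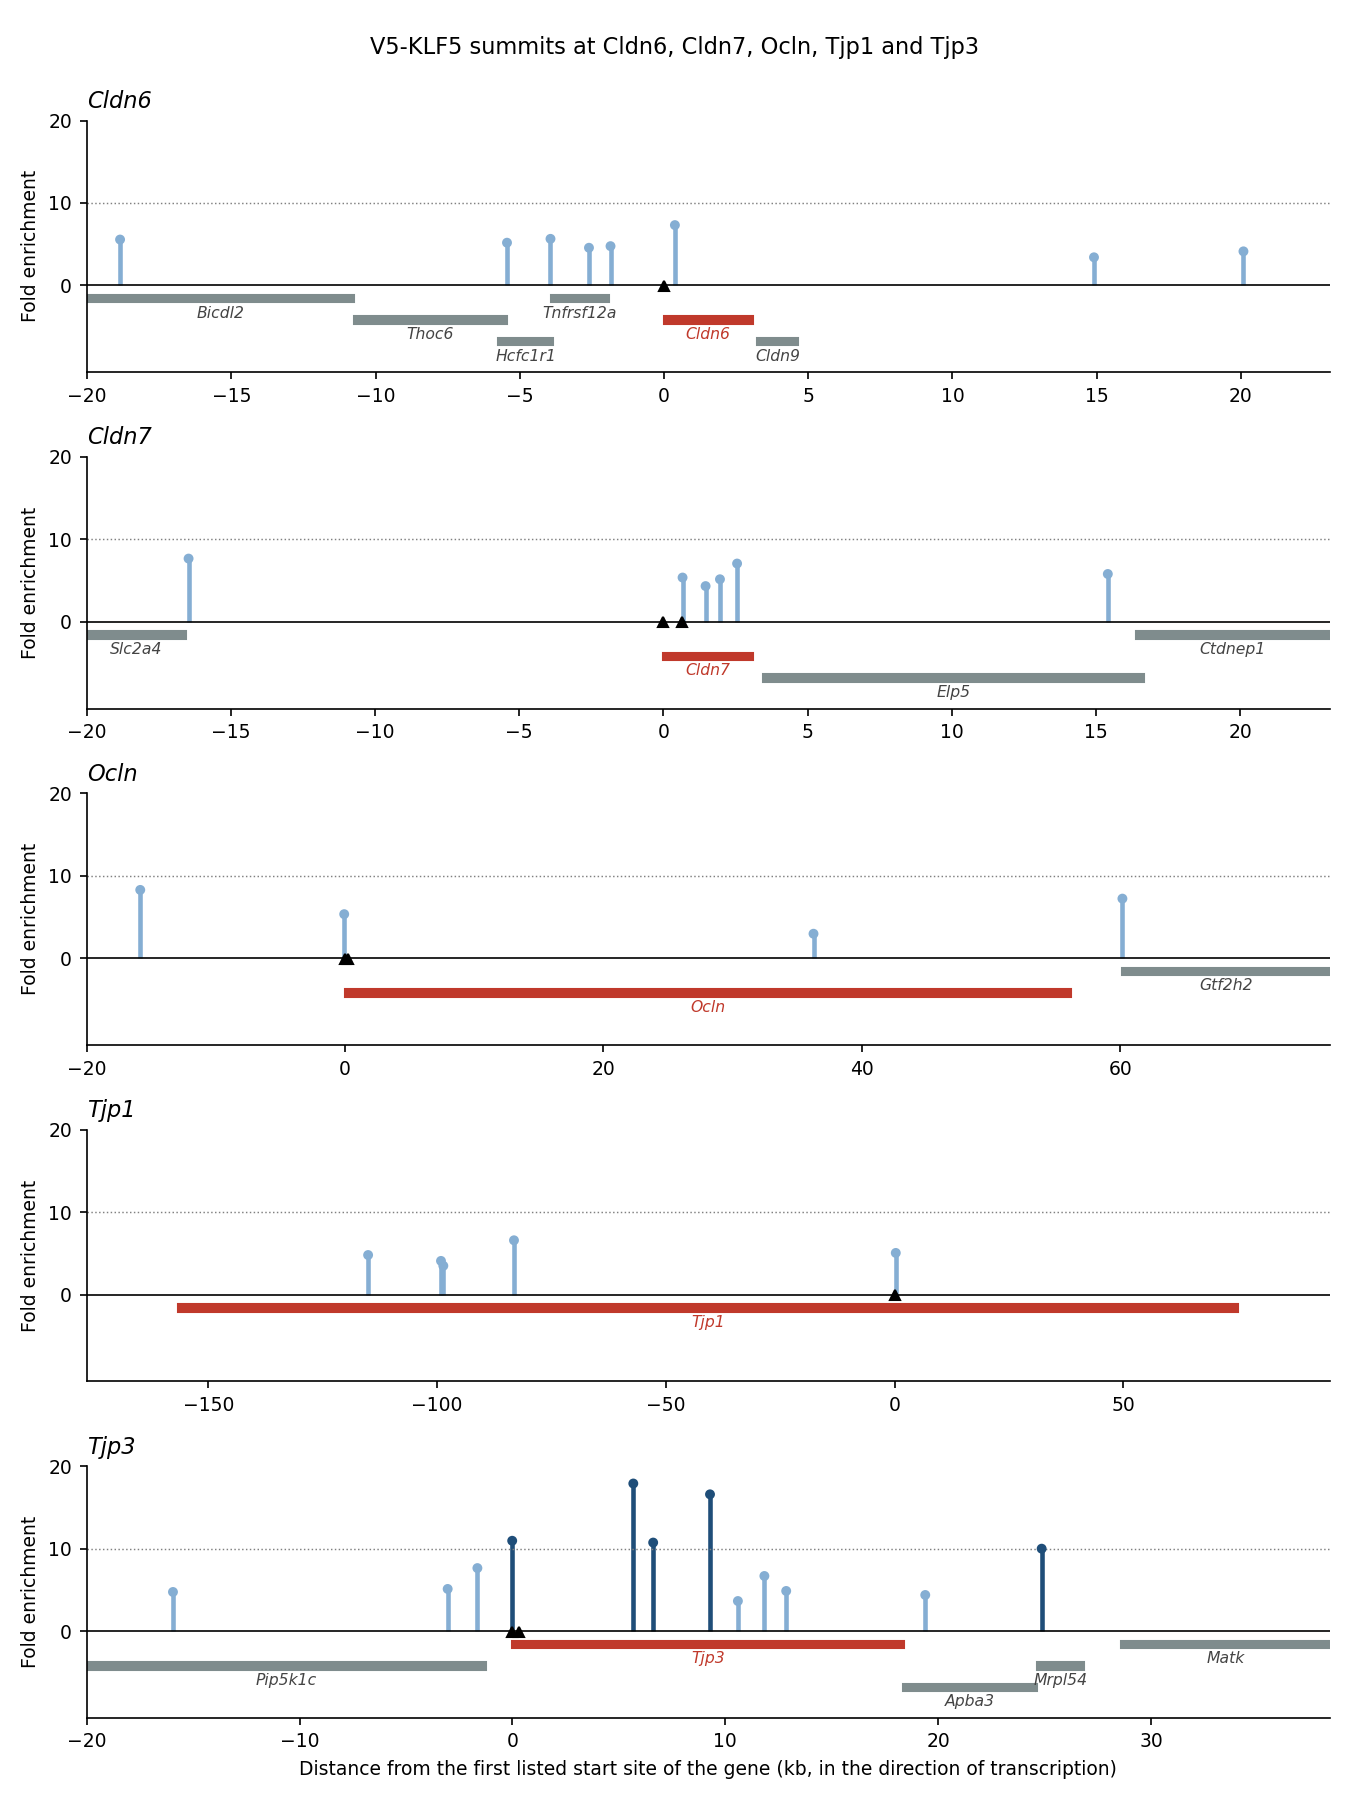
V5-KLF5 summits at Cldn6, Cldn7, Ocln, Tjp1 and Tjp3, with the distance from the first listed start in kb, in the direction of transcription, on the x axis and the fold enrichment over input on the y axis; triangles are listed start sites, red boxes the named gene, grey boxes its neighbours, and dark lines summits at or above 10 (dotted line). Tjp3 has 5 such summits and the other 4 genes have 0.

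In strength the 61 summits as a whole were near the rest of the library. Their median fold enrichment was 5.38, against 5.18 for all summits, and their median pileup 27, against 24. Those of at least 10 numbered 13 (21.3%, against 13.0% of all), with 8 in the block and 5 at Tjp3. The genes with at least 1 such summit were Cldn3, Cldn4, Cldn13 and Tjp3, 4 of 8, against 28.0% of protein-coding genes. The Cldn13 values were shared with Cldn4, so these 4 genes are not separate observations.

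**Figure D3:**
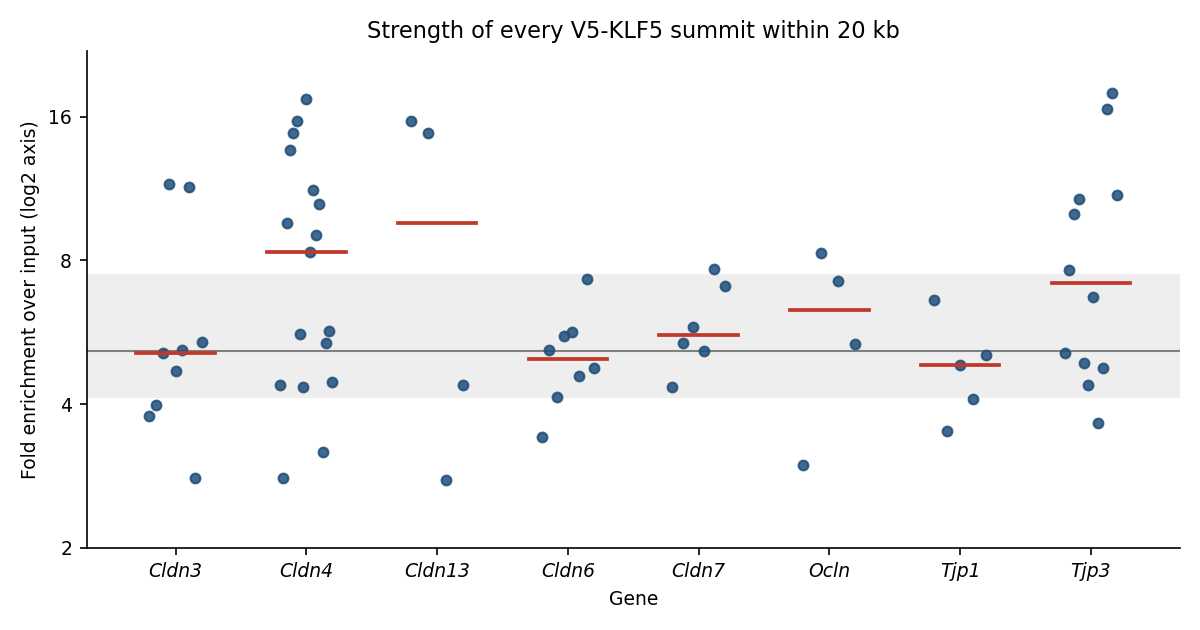
Fold enrichment over input (log2 axis) of every summit within 20 kb of each gene; each point is a summit, red bars are medians per gene, and the grey line and band are the median and quartiles of all summits on assembled chromosomes (5.18, and 4.15 to 7.45). Cldn4 and Tjp3 reach highest, to 17.4 and 17.9, and summits shared by Cldn4, Cldn3 and Cldn13 appear under each.

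Like most summits of the library, the strong ones were mostly away from start sites. Of the 13 with a fold enrichment of at least 10, those of Cldn4 and Tjp3 were the 2 within 500 bp of a listed start of any gene (15.4%, against 24.7% of all summits of that strength). Among the 48 weaker ones 11 were (22.9%, against 20.0% of all weaker summits). In all, 13 of the 61 summits (21.3%, against 20.6% of all summits) were within 500 bp of a listed start. Of these, 7 were at a member and 6 at a neighbouring gene. With respect to gene spans, 18 summits were inside a member, 18 inside another protein-coding gene only and 25 outside protein-coding genes. The nearest gene end was that of a member for 32 summits and of another gene for 29.

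The count of summits ran from 4 at Cldn13 and Ocln to 17 at Cldn4, with a median of 7 over the 8 genes and of 2 over all protein-coding genes. Longer genes have longer windows, and gene-rich regions bring in the peaks of neighbours. At Cldn4, 7 of 17 summits had the gene itself as the nearest, at Tjp3 4 of 12, at Cldn6 1 of 8 and at Cldn3 7 of 9. Per kb of window the counts were 0.407 at Cldn4, 0.218 at Cldn3, 0.206 at Tjp3 and 0.186 at Cldn6, and 0.0184 at Tjp1. The histogram of summits per gene places the 8 genes between 4 and 17.

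**Figure D4:**
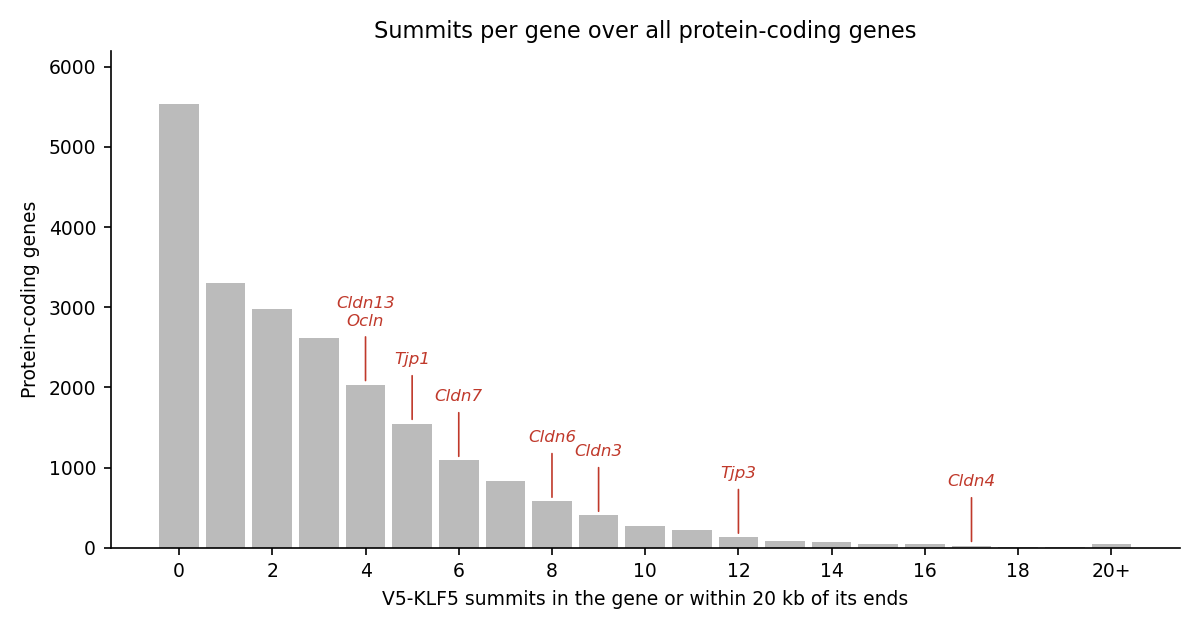
Number of protein-coding genes (y axis) by the number of V5-KLF5 summits in the gene or within 20 kb of its ends (x axis; the last bar holds genes with 20 or more), with the 8 tight-junction genes marked. The genes run from 4 summits (Cldn13 and Ocln) to 17 (Cldn4), and the median over all genes is 2.

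Further genes of the junction were taken as lists, with no test between them. Of the 18 other claudin genes, 10 had a summit within 20 kb (55.6%, against 74.7% of protein-coding genes), with a median of 1 summit per gene against 2. A peak of at least 10 was present at 2 of them (11.1%, against 28.0%). These were Cldn14, with 10 summits and up to 18.2, and Cldn19, with 6 and up to 10.0. Cldn2, Cldn23 and Cldn15 followed with 8.79, 8.79 and 8.18. No summit lay near Cldn1, Cldn8, Cldn12, Cldn16, Cldn17, Cldn20, Cldn22 or Cldn24. Cldn9, next to Cldn6 and counted among the 10, had 7 summits, all of them also summits of Cldn6. The strongest was the Cldn6 peak of 7.32, so Cldn9 is not a separate observation.

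All 22 other tight-junction and polarity genes had a summit (against 74.7% of protein-coding genes), with a median of 5 per gene against 2. Some of these genes are long and so have long windows, such as Magi1 (chromosome 6, 93675453 to 94283929). The part of gene length in these values was not tested. A peak of at least 10 was present at 12 of the 22 genes (54.5%, against 28.0%). The strongest were at Amotl2, an angiomotin family gene, with 30.7, and at genes of the apical polarity complexes, Patj with 30.3, Pard6b with 29.8, Prkci with 29.5 and Pard3 with 24.9. Prkci encodes an atypical protein kinase C, and Pard6b and Pard3 its PAR partners. The strongest peaks of the 8 genes lay below those of these 5 leading genes, which were picked for their strength. Tjp3 and Cldn4, with 17.9 and 17.4, lay above every other gene of that list.

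**Figure D5:**
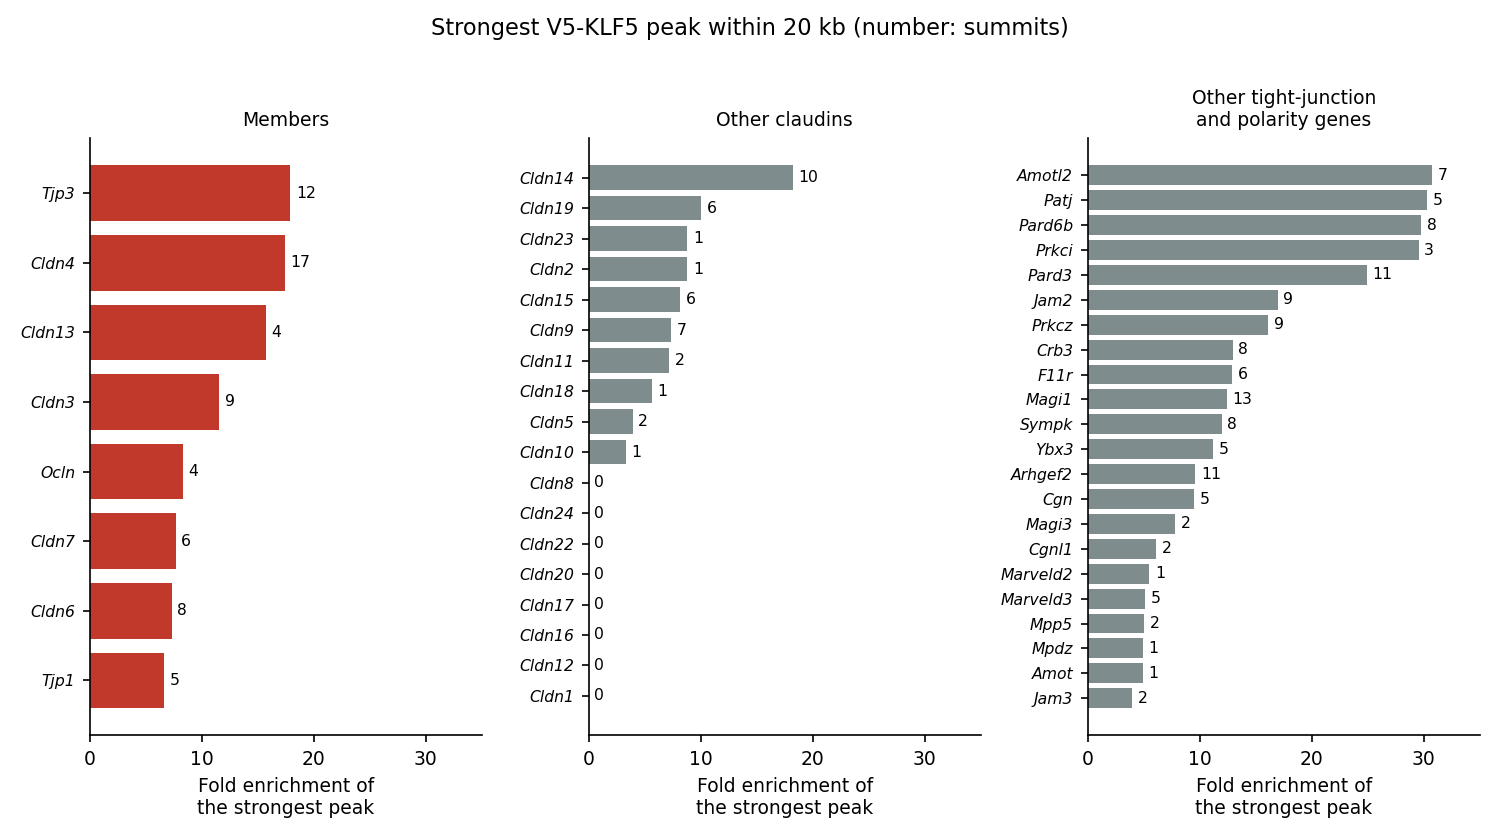
Fold enrichment of the strongest V5-KLF5 peak within 20 kb (x axis) for the 8 genes (red), 18 other claudin genes and 22 other tight-junction and polarity genes; the number beside each bar is the count of summits. Tjp3 and Cldn4 lead the 8 genes with 17.9 and 17.4, 8 other claudins have 0 summits, and Amotl2, Patj, Pard6b, Prkci and Pard3 lie at 24.9 or above.

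The 20 kb limit had summits close on both sides. A summit of 2.80 stood 19834 bp from Cldn4 and the next, of 3.78, at 20529 bp. Just outside the limit lay summits of 15.4 at 23190 bp from Cldn7, 13.6 at 20939 bp from Cldn13 and 9.31 at 21563 bp from Cldn3. The lack of a summit of at least 10 at Cldn7 therefore holds for the 20 kb window only. Each group is 1 library, so no value has a replicate check and no test between groups was made.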

How the data were processed

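ChIP-seq peak lists of the 3 immunoprecipitates were used. Per the file headers, the authors ran MACS2 2.1.0.20140616 on each immunoprecipitate alone, with the matching input as control. The caller extended 51 bp tags to 250 bp, kept 1 tag per position and reported peaks up to a q-value of 0.05. mm10 and Bowtie 0.12.8 are named in the submitters' processing notes. For multiply mapped reads, the handling was not given in the sources used.

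Per the file headers, a deposited peak carries its pileup signal, its p-value and q-value as −log10, and its fold enrichment (a ratio with 1 added to pileup and to input background). All were taken as the authors gave them, only to describe and rank peaks within the list. The input background was recovered from pileup and fold. Its lowest value in the list was 3.10, and 13 of the 61 summits stood on that floor, among them the Tjp3 peak of 16.6. Fold enrichment at those summits is a ratio to the floor.

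Gene spans and 32851 promoter windows came from RefSeq (GRCm38.p6). All 8 genes matched the gene table and 7 the promoter table. The gene table gives no exons, so exonic and intronic positions were not resolved. Counts and motif searches (Python 3.11.15, pandas 2.3.3) were tested on simulated data. The members, gene lists and thresholds were chosen with earlier results of these data known. Named genes were all 8 members, their summits of fold enrichment at or above 10 with the nearest gene, the 5 strongest of each other list and those without a summit. An item of those lists is not reported here. No measure of likeness between genes could be had from 1 library.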

Additional observations from a re-analysis of the deposited data

How the results depend on the processing

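The values described have no test, and the counts change with the window and the peak threshold. All 8 genes had a peak under 5 of 7 settings, 6 had one inside the gene only, and 4 had one with a fold enrichment of 10 or more. Within 10 kb, within 50 kb and inside the gene only, the share of protein-coding genes with a peak was 70.5%, 81.1% and 50.9%, and the median count per member 4.5, 16.5 and 1. The 61 summits became 18 inside the genes. At a fold enrichment of at least 5, at least 10 and a −log10 q of at least 10, the summits numbered 39, 13 and 34, the background share was 63.8%, 28.0% and 61.1%, and the median per member 4.5, 1 and 3.5. Counting a summit only for the gene with the nearest end gave a median of 4. The looser KLF motif raised the promoter share from 19.4% to 56.6%. Counting any base of a peak in the window kept 61. Ranking by pileup moved the strongest peak of Cldn4 to the one at 15.7, of Cldn6 to 4.77, of Ocln to 7.24 and of Cldn3 to 11.4. No paired analysis was possible because each group is 1 library. Peaks below the q-value cutoff cannot be seen, so a gene without a summit may still have weaker signal.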
